A study of Mus musculus with 4 samples.

Results

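The 2-library SOX2 regions are stretches of the mouse cortex genome at which a SOX2 pull-down was enriched in exactly 2 of 3 immunoprecipitated (IP) libraries. They were chosen by the authors' peak calls: the peaks of the 3 IP libraries were pooled, peaks sharing at least 1 bp were joined in chains, and chains with peaks of exactly 2 libraries were kept. There are 5496 of them, 20.3% of the 27083 regions found in any library. Of the others, 9334 (34.5%) held peaks of all 3 libraries and 12253 (45.2%) a peak of 1 library. Tissue was cortex of 2-month-old male wild-type C57BL/6 mice, 0.3 g as the protocol gives it. The 3 SOX2 IP libraries were pulled down with a rabbit polyclonal antibody, and the 1 input library was made from chromatin without antibody. A label names SOX2 as a transduced factor in every sample, the input included, while the protocol describes wild-type tissue. No group was injured, treated or lacked SOX2 by its labels, and the cortex holds many cell types that these libraries mix. Nothing in the labels says that the libraries came from separate animals, and their spread may reflect only technical variation. The files hold no expression values, so the tissue label could not be checked against marker genes.

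SOX2 is a transcription factor with an HMG-box domain that binds short AT-rich motifs in the minor groove of DNA, often beside a partner such as a POU factor. In the brain it keeps neural stem cells undifferentiated, and it goes on being made in adult astrocytes. In chromatin immunoprecipitation sequencing, DNA carried down by an antibody is sequenced, and a peak is a place where its reads (tags) pile up over the input.

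Promoters are shown as examples of sequence under 2-library regions, of which 16.9% overlap a promoter window. A promoter window here runs from 250 bases before to 50 bases after a RefSeq transcription start of the GRCm38.p6 assembly, so base 251 is the start itself, and each window has 300 bases written 5′ to 3′ on the gene's strand. Capitals mark ACAAAG or its reverse complement CTTTGT, a form of the SOX motif core, searched on both strands. Motif means only this form in the counts and shares below. Other forms were not searched, so a window without capitals may still hold a SOX site. The first 5 windows are those of the 5 strongest regions overlapping a promoter, and those of Hes6 and Klf9 were added after their values were seen, as factors that act in neural progenitors and brain cells. Their positions are chr5:77122403-77122702 (minus strand) for Gm15831, chr7:30090461-30090760 (minus) for Zfp566, chr4:136602674-136602973 (minus) for Kdm1a, chr13:86046746-86047045 (minus) for Cox7c, chr13:18281048-18281347 (plus) for Gm31832, chr1:91413173-91413472 (minus) for Hes6 and chr19:23140976-23141275 (plus) for Klf9.
Gm15831: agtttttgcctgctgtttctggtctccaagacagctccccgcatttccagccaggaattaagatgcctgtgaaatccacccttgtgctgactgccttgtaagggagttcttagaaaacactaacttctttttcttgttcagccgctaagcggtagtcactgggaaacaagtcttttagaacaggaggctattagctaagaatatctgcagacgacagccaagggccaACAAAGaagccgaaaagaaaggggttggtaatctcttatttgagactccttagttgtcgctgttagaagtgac
Zfp566: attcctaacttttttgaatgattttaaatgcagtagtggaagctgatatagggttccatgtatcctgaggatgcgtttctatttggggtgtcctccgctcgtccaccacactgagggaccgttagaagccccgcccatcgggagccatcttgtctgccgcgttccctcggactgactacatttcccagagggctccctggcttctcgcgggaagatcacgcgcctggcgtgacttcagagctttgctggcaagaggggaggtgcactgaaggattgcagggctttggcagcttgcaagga
Kdm1a: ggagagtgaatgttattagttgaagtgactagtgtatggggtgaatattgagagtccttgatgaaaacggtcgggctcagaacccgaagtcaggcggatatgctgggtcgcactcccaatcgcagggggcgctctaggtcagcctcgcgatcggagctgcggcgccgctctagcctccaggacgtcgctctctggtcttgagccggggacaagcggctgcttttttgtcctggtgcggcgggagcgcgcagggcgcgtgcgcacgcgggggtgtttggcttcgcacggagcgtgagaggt
Cox7c: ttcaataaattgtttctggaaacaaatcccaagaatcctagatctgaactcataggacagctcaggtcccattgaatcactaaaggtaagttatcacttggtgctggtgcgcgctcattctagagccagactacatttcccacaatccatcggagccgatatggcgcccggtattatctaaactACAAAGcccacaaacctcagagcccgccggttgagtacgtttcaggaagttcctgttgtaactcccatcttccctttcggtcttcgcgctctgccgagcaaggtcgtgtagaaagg
Gm31832: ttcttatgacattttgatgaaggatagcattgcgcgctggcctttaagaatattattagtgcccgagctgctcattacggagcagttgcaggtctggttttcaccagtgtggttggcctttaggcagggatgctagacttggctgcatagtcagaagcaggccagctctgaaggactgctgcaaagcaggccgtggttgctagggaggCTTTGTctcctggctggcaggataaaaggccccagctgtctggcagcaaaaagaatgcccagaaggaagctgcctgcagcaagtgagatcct
Hes6: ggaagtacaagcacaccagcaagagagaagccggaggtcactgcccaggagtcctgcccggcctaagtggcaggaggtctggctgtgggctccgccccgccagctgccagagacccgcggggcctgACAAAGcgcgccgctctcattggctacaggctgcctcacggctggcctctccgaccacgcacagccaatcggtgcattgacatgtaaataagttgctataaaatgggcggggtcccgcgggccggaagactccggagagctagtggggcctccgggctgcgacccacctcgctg
Klf9: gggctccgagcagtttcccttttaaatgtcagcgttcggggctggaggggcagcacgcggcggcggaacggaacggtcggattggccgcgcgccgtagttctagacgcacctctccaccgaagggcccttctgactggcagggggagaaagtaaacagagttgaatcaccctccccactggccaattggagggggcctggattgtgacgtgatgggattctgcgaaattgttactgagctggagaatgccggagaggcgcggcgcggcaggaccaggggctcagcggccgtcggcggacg

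The region over the Gm15831 start, a long non-coding RNA beside Hopx, was far stronger than the other 6. It held 26.5 and 18.1 normalized tags in IP libraries 2 and 3. Normalized tags are the authors' tag number of a peak after each library was brought to 10000000 tags. Its centre lay 38.0 bases before the start, and the ACAAAG of that window lay inside the region. The region at Cox7c, a subunit of cytochrome c oxidase, held 10.5 and 11.5 normalized tags in libraries 1 and 3, 81.5 bases before the start. The region at Kdm1a, the histone demethylase LSD1, held 10.7 and 12.9 in libraries 1 and 2 and was 5.05-fold and 4.73-fold over the input, where the authors required 4-fold. Zfp566, a zinc finger gene, held 13.2 and 9.31 in libraries 2 and 3, at 6.23-fold and 4.38-fold. At Gm31832, another long non-coding RNA, the values were 11.4 and 9.79 in libraries 2 and 3, at 4.69-fold and 4.03-fold. Hes6, a Notch pathway factor that acts with proneural factors, held 9.91 and 11.1 in libraries 1 and 2, with its region centred 114 bases before the start. Klf9, a zinc finger factor induced by glucocorticoid and thyroid hormone, held 10.2 and 9.23 in the same libraries, 140.5 bases before the start. The windows of Gm15831, Cox7c, Gm31832 and Hes6 each had 1 motif, inside the region, and the other 3 had none. Among all 8 windows picked after their values were seen, Hes6 was the only one with a motif: Klf9, Id2, Rbpj (2 windows), Tcf7l2, Tle3 and Tubb3 had none.

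Over all promoters, windows overlapped by 2-library regions held the motif less often than those overlapped by 3-library regions, a difference that was not tested. A window counts as under a region when they share any base. The whole window was searched, so the motif may lie outside the region. These regions overlapped 1106 of 32851 promoter windows (3.37%), and 183 of the 1106 (16.5%) held ACAAAG on either strand. The share was 20.8% of 1861 windows under 3-library regions, 13.3% of 1972 under 1-library regions, and 18.7% of all windows. The windows under 2-library regions had a median GC content of 60.0%, against 52.7% for all windows, and the part of GC content in the motif shares was not tested.

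Peak strength placed the 2-library regions between the other classes in every library. This ordering follows from the choice of members, since a stronger peak is more easily called, and is given as a description. In IP library 1 the median peak held 5.51 normalized tags in 2-library regions, 8.26 in 3-library regions and 4.68 in 1-library regions. In IP library 2 the medians were 5.23, 8.00 and 4.92 in the same order, and in IP library 3 they were 4.54, 6.93 and 4.06. Over libraries, the median was 5.09 ± 0.499 in 2-library regions, 7.73 ± 0.705 in 3-library regions and 4.55 ± 0.444 in 1-library regions (SD, n = 3). The interquartile range in 2-library regions was 4.68 to 6.61, 4.62 to 6.46 and 4.06 to 5.49 in libraries 1, 2 and 3. In tags, calculated from the normalized value, the median peak of a 2-library region held 20.0, 17.0 and 19.0. The libraries held 36330529, 32492927 and 41875666 tags. A peak needed a score of at least 14, 13 and 16. The score is counted after a cap per bp, so it is not on the scale of these tags. By score, 84.2% of members were within 1.5 times the minimum in at least 1 library. The strongest member reached 32.9 normalized tags as the mean of its libraries.

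**Figure D1:**
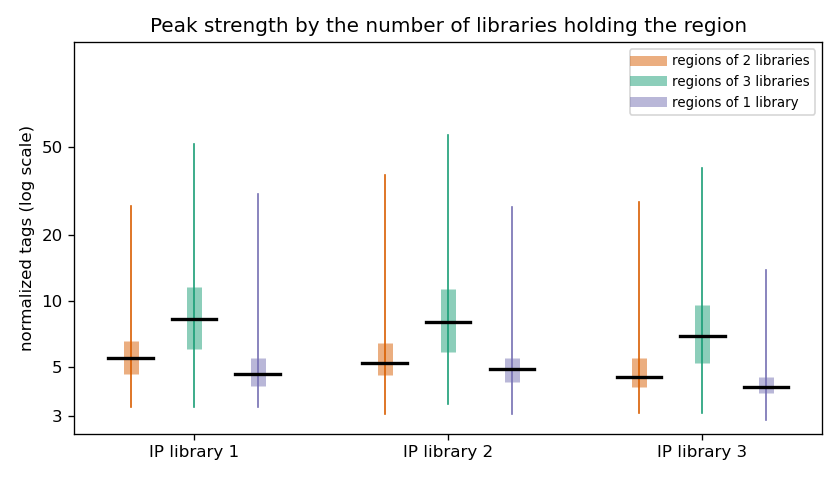
Normalized tags (log axis) of the strongest peak per region in each IP library, for regions of 2, 3 and 1 libraries; thick bars span the quartiles, thin lines the lowest to the highest value, and black lines the median. In each library the 2-library median (5.51, 5.23 and 4.54) lies below the 3-library median and above the 1-library median.

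Enrichment over the input followed the same order. Fold is here the number of IP tags per input tag, as the authors computed it. The median fold was 9.07, 8.62 and 7.87 in 2-library regions of libraries 1, 2 and 3, against 15.4, 15.2 and 12.3 in 3-library regions and 8.16, 7.60 and 7.47 in 1-library regions. Input tags differed little between classes. Their median was 2 tags in all classes and libraries, scaled by the authors to the IP total in library 2. Their mean was 2.11 ± 0.0775 in 2-library regions, 2.17 ± 0.0376 in 3-library regions and 2.00 ± 0.147 in 1-library regions (SD, n = 3). The input sat at its floor of 0.5 tags in 12.9 ± 0.586%, 13.4 ± 0.548% and 13.5 ± 1.44% of them. By library the mean was 2.15, 2.17 and 2.03 in 2-library regions and 2.15, 2.14 and 2.21 in 3-library regions, with no common direction. In 1-library regions it was the lowest of the classes in each library, at 2.06, 2.11 and 1.84. The fold of a peak at that floor depends on the floor.

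The 2-library regions drew mostly on peaks of weak and middling score. By decile of score (1 weakest), deciles 1 to 3 held 1552, 1491 and 1236 of their peaks in libraries 1, 2 and 3. Deciles 4 to 7 held 2081, 2027 and 1570, and deciles 8 to 10 held 411, 390 and 234. In decile 4 of a library's peaks by score, 33.4 ± 0.726% lay in 2-library regions, the highest share, against 24.4 ± 2.13% in the weakest decile and 1.74 ± 0.351% in the strongest (SD, n = 3). In the strongest decile 97.7 ± 0.558% lay in 3-library regions and 0.537 ± 0.301% in 1-library regions. IP library 3 gave the smallest share of its peaks to 2-library regions, 19.1%, against 22.8% and 22.2% in libraries 1 and 2.

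**Figure D2:**
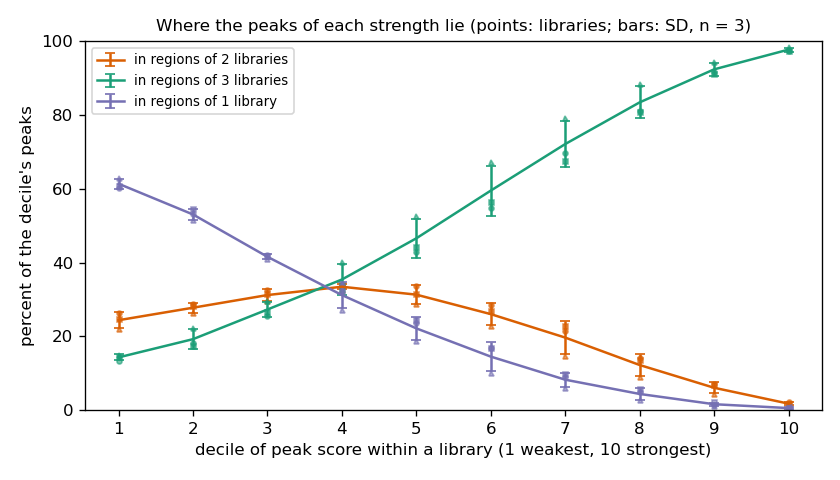
Percent of the peaks in each decile of peak score (1 weakest, 10 strongest) that lie in regions of 2, 3 and 1 libraries; lines and bars are means ± SD over the 3 IP libraries, and points are single libraries. The 2-library share rises to 33.4% in decile 4 and drops to 1.74% in decile 10.

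Libraries 1 and 2 shared the most regions that the remaining library lacked. Of the 5496 regions, 2456 (44.7%) held peaks of libraries 1 and 2, 1588 (28.9%) of libraries 1 and 3, and 1452 (26.4%) of libraries 2 and 3. Library 3 also differed in the authors' settings, with a peak size of 158 bp against 152 bp and a cap of 2 tags per bp against 1 in both other libraries; the part of these settings was not tested. All members held exactly 2 peaks, 1 per library, and spanned 152 to 310 bp (median 188 bp, against 201 bp for 3-library regions and 152 bp for 1-library regions). The 2 peaks shared a median of 120 bp in the pairs with library 1 and 122 bp in the pair of libraries 2 and 3. Their strengths were alike: they differed by more than 1.5-fold in 10.7% of the regions of libraries 1 and 2, 13.7% of those of libraries 1 and 3, and 11.6% of those of libraries 2 and 3. A difference above 2-fold was seen in 16, 22 and 9 regions of these pairs. Across regions, log2 strengths had a Pearson correlation of 0.563 to 0.598 and strengths a Spearman correlation of 0.404 to 0.450 over the 3 pairs. These values run across regions of the same libraries, all of which had to pass the threshold, and carry no p.

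Most members lay near at least 1 of the authors' limits. A region was counted as near a limit when, in at least 1 of its libraries, it was within 1.5 times the minimum for score, for fold over input or for fold over the surrounding 10 kb. By this count 92.4% of 2-library regions were near a limit, against 54.6% of 3-library regions and 94.8% of 1-library regions. For score the shares were 84.2%, 44.5% and 89.7%, for the input 36.5%, 21.4% and 30.1%, and for the local background 54.4%, 28.9% and 51.1%. A region of more libraries has more chances to be counted, so these shares do not compare the classes on equal terms. Within each library, the median fold over the surrounding 10 kb was higher in 2-library regions (6.78, 6.84 and 5.93) than in 1-library regions (6.19, 6.21 and 5.45). The median fold over input, given above, was higher too. These measures chose the peaks, so the shares describe the members and test nothing.

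The missing library had a peak next to a minority of the regions, with the largest share among the strongest. In 585 of all 5496 regions (10.6%) it had a peak that did not overlap but lay within 304 bp, which is the minimum distance the authors set between peaks of a library for libraries 1 and 2. The share was 8.55%, 11.4% and 13.4% where library 3, 2 and 1 was missing. It was 3.82% in the weakest decile of 2-library regions, 18.9% in decile 9 and 32.2% in the strongest decile. Of the 100 strongest regions 59 had such a peak, and of the 20 strongest 18 did. These neighbouring peaks were as strong as the regions beside them, with a median of 6.16 normalized tags against 6.23 in the regions. The median gap was 99 bp. Of the 585 neighbours, 421 (72.0%) lay in a 1-library region, 80 in another 2-library region and 84 in a 3-library region.

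Regions with such a neighbour also had peaks that were less sharply centred. The focus ratio, the authors' fraction of a peak's tags that fall where its centre predicts, had a median of 0.662, 0.674 and 0.675 in libraries 1, 2 and 3 for regions with a neighbour. For the other 2-library regions it was 0.732, 0.733 and 0.722, and for 3-library regions 0.746, 0.744 and 0.738. The libraries did not overlap between regions with a neighbour (0.670 ± 0.00723) and those without (0.729 ± 0.00608, SD, n = 3). The median with a neighbour was the lower one in each decile of strength. Both medians of a library come from that same library, so the values are paired. With only 3 libraries, no test was run and no p is given.

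**Figure D3:**
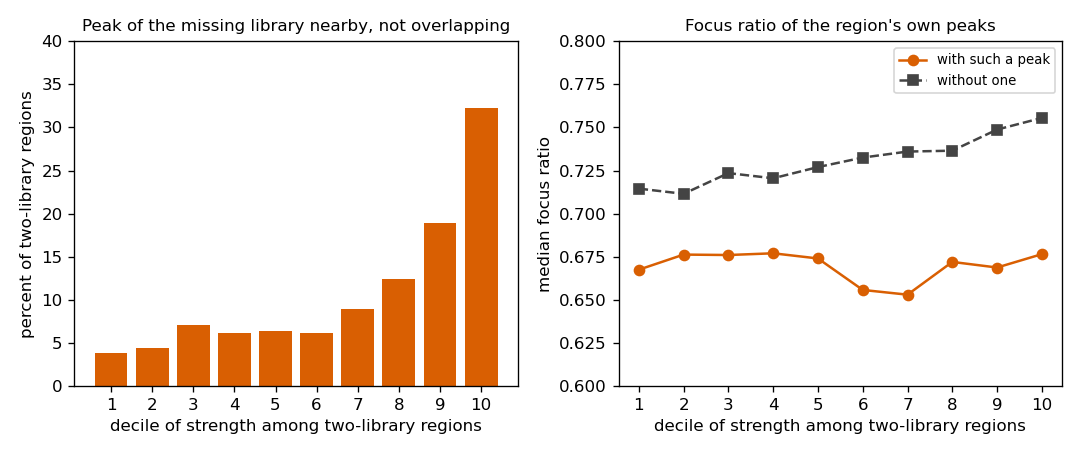
Left, percent of 2-library regions in each decile of strength (1 weakest, 10 strongest) where the missing library has a peak within 304 bp that does not overlap. Right, median focus ratio of the regions' own peaks (axis from 0.6 to 0.8) with and without such a peak: the share reaches 32.2% in decile 10, and regions with a neighbour lie lower in every decile.

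Gnao1, which encodes the alpha subunit of the Go protein of neurons, carried the strongest 2-library region. It lay inside the gene at chr8:93917827-93918008 (mm10, as are all region coordinates here) and held 37.5 normalized tags in library 2 and 28.2 in library 3. Library 1 had a peak of 30.6 normalized tags 23 bp away. A region inside Nhsl1 at chr10:18360107-18360279 held 28.0 and 22.7 in libraries 2 and 3, at 184.5-fold and 149-fold over the input, and library 1 had 26.4 at 167 bp. In Msi2, an RNA-binding protein of neural progenitors, a region at chr11:88583410-88583572 held 27.2 and 20.8 in libraries 1 and 3, with 22.5 in library 2 at 39 bp. All 3 of these loci were thus strongly enriched in every library, and the peak of the missing library stood beside the region without touching it. The fold at Nhsl1 rests on the input floor in both libraries.

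The same held for several genes of glia and progenitors. The region that overlaps Gm15831, assigned to Hopx, a homeodomain protein of radial glia, lay 7.37 kb outside that gene, and library 1 had 24.5 normalized tags 57 bp from it. The astrocyte receptor gene Fgfr3 had a region 16.3 kb outside it, at chr5:33705288-33705479, with 21.5 and 15.8 in libraries 1 and 3 and a library 2 peak of 15.4 at 29 bp. A region 7.49 kb outside Klf9 held 16.5 and 16.3 in libraries 1 and 2, and the library 3 peak of 10.7 lay 2 bp away. In Kif1b, a kinesin motor gene, the region of libraries 1 and 3 (21.7 and 16.5) and that of libraries 1 and 2 (16.5 and 17.2) were neighbours, 120 bp apart. Further genes among the 20 with the highest-ranked region, counted by gene and so not the same set as the 20 strongest regions, were Chic2 (19.1 and 15.3 in libraries 2 and 3) and Thumpd3 (19.5 and 18.9 in libraries 1 and 3). Eno1, which encodes a glycolytic enolase, had 17.1 and 14.6 in libraries 1 and 3, and Gsx1, a homeobox gene of the ventral forebrain, 16.0 and 11.7 in the same libraries. Each of these last 4 genes also had a peak of the missing library within 114 bp. Also among these 20 genes were Bod1, Lman1, Ppp2r2b, Mgat4e, Pebp4, Lipg, Ift43 and Dusp6, with means of 14.2 to 16.3 normalized tags over their libraries. Of the 20 genes, Dusp6, Lman1 and Pebp4 had no missing-library peak within 304 bp of that region. By pair of libraries, the list of the 5 strongest added a region of libraries 1 and 2 at 96.1 kb from Tcf7l2, with 16.5 and 16.6, and a further one inside Msi2, with 15.1 and 16.3.

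Other strong members had no missing-library peak within 304 bp. In all, 259 regions had no missing-library peak within 304 bp and were not near any limit, and 142 of them were in the strongest decile. For some the missing library's peak lay just past that distance. The strongest, near Lman1 with 15.1 and 15.4 normalized tags in libraries 1 and 2, had a library 3 peak of 18.1 at 411 bp. One far from Kcnn2, with 11.8 and 12.0 in the same libraries, had 13.9 at 427 bp. A 3-library region, with peaks of libraries 1 and 2 as well, lay 0.397 kb from the Lman1 member. Another lay 0.339 kb from the Kcnn2 member. For other members the missing library's peak was far away. Dusp6, a phosphatase that switches off ERK, held 14.6 and 16.0 normalized tags in libraries 1 and 2 at chr10:99265485-99265646, 6.86-fold and 10.5-fold over the input, and the nearest library 3 peak lay 2.28 kb away. In Nfib, a factor of astrocyte development, a region at chr4:82360150-82360317 held 12.1 and 14.8 in libraries 1 and 2, with no library 3 peak for 24.4 kb. At the start of Cox7c, shown above, the nearest library 2 peak was 757 kb away. Among the 372 regions of the strongest decile without a neighbour, 180 were within 1.5 times the 4-fold limit over the input in at least 1 library, and their median fold was 7.50 for all 372, against 15.1 for the 177 with a neighbour.

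The edge of the overlap rule touched few regions. In 59 members the 2 peaks shared at most 10 bp (median 4.96 normalized tags), while 117 1-library regions lay at most 10 bp from a peak of another library (median 5.25). At the other edge, 53 members had a missing-library peak at most 10 bp away (median 6.47), and 278 3-library regions were chains with no base common to all libraries (median 6.00).

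The 2-library regions lay about genes much as the other classes did. In 1195 of 5496 regions (21.7%, exact 95% interval 20.7 to 22.9%) the centre was at most 1 kb from where a protein-coding gene starts or finishes, called a gene end here. The share was 19.8% in 3-library regions and 20.6% in 1-library regions. By pair it was 22.7% in libraries 1 and 2, 19.6% in libraries 1 and 3, and 22.4% in libraries 2 and 3, so the pairs spread as widely as the classes. Another 45.7% were deeper in a gene, 17.5% were outside genes but at most 50 kb from one, and 15.1% were farther out, against 44.5%, 18.7% and 16.9% of 3-library regions. The interval covers counting error only.

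Among peaks of the upper 3 deciles of score, 21.0 ± 3.43% of those in 2-library regions lay at gene ends, against 17.4 ± 0.613% of those in 3-library regions (SD, n = 3). By library these were 19.7%, 24.9% and 18.4%, against 17.2%, 18.1% and 16.9%, so every library was higher in 2-library regions, and the lowest of them (18.4%) lay just above the highest 3-library value (18.1%). In 1-library regions the upper deciles gave 15.8%, 23.0% and 20.0%, which overlap both. In deciles 4 to 7, which hold the most 2-library peaks, the order was not kept: 21.3%, 22.7% and 21.4% of 2-library peaks (21.8 ± 0.766%) lay at gene ends, against 22.4%, 21.9% and 22.9% of 3-library peaks (22.4 ± 0.518%). In the lower 3 deciles the shares were 21.7 ± 0.701% and 21.3 ± 1.63%. The direction in the upper deciles rests on 234 to 411 peaks per library in 2-library regions and was not tested beyond these values.

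The gene ends were nearly always starts. Of the 1195 regions at gene ends, 980 were at a gene whose strand the promoter table gives, and 911 of these (93.0%) lay at the start, against 91.3% in 3-library regions and 92.3% in 1-library regions. Centres piled up just upstream: 7.60% of 2-library regions fell in the 100 bp before a start, against 7.53% of 3-library regions and 5.49% of 1-library regions. Overlap with a promoter window was found in 16.9% of 2-library regions, 16.6% of 3-library regions and 14.1% of 1-library regions.

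**Figure D4:**
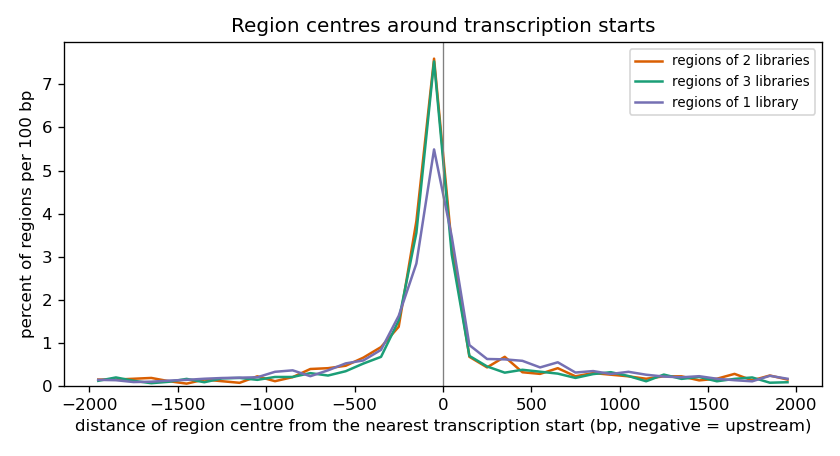
Percent of regions per 100 bp by distance of their centre from the nearest RefSeq transcription start, for regions of 2, 3 and 1 libraries. The 2-library and 3-library lines peak at 7.60% and 7.53% in the 100 bp upstream, above the 1-library line at 5.49%.

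The regions also overlapped 4 of 1003 microRNA hairpins (0.399%), a search made after the data were seen. The 3-library regions overlapped 2 (0.199%) and the 1-library regions 8 (0.798%), and the difference was not tested. Among the 4 was the hairpin of let-7i, a member of the let-7 family that promotes differentiation in the nervous system and other tissues. That region, chr10:122985479-122985707, shared 68 bases with the hairpin and held 4.00 and 4.30 normalized tags in libraries 2 and 3, 13.2-fold and 14.2-fold over the input, and no library 1 peak lay within 53.9 kb. The mature sequences from RefSeq are given to identify the gene, with the seed (bases 2 to 8) in capitals.
mmu-let-7i-5p: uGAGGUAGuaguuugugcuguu
mmu-let-7i-3p: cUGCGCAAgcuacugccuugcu
The other hairpins were those of Mir5136 (5.23 and 6.16 in libraries 1 and 2), Mir344c (5.23 and 4.30 in libraries 2 and 3, sharing only 3 bases with it) and miR-9768 (4.95 and 3.34 in libraries 1 and 3).

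The nearest protein-coding gene was at most 50 kb away for 4665 of the 2-library regions (84.9%), and each was assigned to it. They fell on 3420 of 21631 genes (15.8%), 2624 of them with 1 such region, 529 with 2 and 267 with 3 or more. For comparison, 4873 genes (22.5%) had a 3-library region. Both kinds were found at 1556 genes, 45.5% of the genes with a 2-library region and 31.9% of those with a 3-library region. The remaining 1864 genes (8.62% of all) had a 2-library region and no 3-library region. Gene length moved with this sharing: the median span was 87.5 kb for genes with both kinds, 27.8 kb for genes with a 2-library region and no 3-library region, and 12.6 kb for genes with neither. With genes ranked by length in 4 equal groups, in each group the genes with a 3-library region more often had a 2-library region as well. In the shortest group this was 15.8% against 4.39% of genes without a 3-library region, and in the longest group 45.1% against 20.9%. Nearness alone says nothing of which gene is regulated.

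The 7 genes with at least 7 2-library regions were Auts2, Zbtb20, Kirrel3, Lsamp, Nfia, Rora and Tcf7l2. Auts2, a gene of neuronal development, had 9, beside 11 3-library regions over 1106 kb. Zbtb20, a zinc finger factor of astrocyte development, had 8 beside 11 over 759 kb. Nfia, which drives astrocyte formation, had 7 beside 11 over 541 kb, and Rora, a nuclear receptor of the circadian clock, had 7 beside 14 over 735 kb. Kirrel3 and Lsamp, cell adhesion genes of neurons, had 7 each beside 10 each. Tcf7l2, a transcription factor of the Wnt pathway, was shorter, with 7 beside 8 over 192 kb. Pfkp, the platelet isoform of phosphofructokinase, had 5 over 69.2 kb and no 3-library region.

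Markers of neural stem and progenitor cells carried 2-library regions most often among 13 gene lists, at 18 of 25 members (72.0%) against 15.8% of all protein-coding genes. Of these 18, 15 also had a 3-library region. The share with a 3-library region was higher still, at 20 of 25 members (80.0%) against 22.5% of all protein-coding genes. Beside Msi2 and Hopx, the receptor gene Notch1 was strongest, with 9.63 and 16.9 normalized tags in libraries 1 and 2 inside the gene. Nes, Vim and Emx2 had 2-library regions and no 3-library region, 12.0% of the list against 8.62% of all genes. The region in Nes, which encodes the filament nestin, lay at chr3:87974450-87974611 with 4.92 and 5.25 in libraries 2 and 3, 16.2-fold and 34.6-fold over the input, the library 3 fold at the input floor. That in Vim, the filament vimentin, lay at chr2:13576098-13576291 with 5.54 and 4.78 in the same libraries, and the nearest library 1 peak was 3.66 kb away. Emx2, a homeobox gene of the dorsal forebrain, had 2 such regions, the stronger with 5.51 and 4.31 in libraries 1 and 2.

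Astrocyte markers had a 2-library region at 17 of 34 members (50.0%), and 16 of the 17 had a 3-library region as well. The share with a 3-library region was far larger, at 31 of 34 members (91.2%), the highest among the gene lists. Of all protein-coding genes, 15.8% had a 2-library region and 22.5% a 3-library region. The strongest were those of Fgfr3 and Nfib, given above, and of Hepacam, an adhesion protein of astrocytes. The Hepacam region held 11.4 and 11.0 in libraries 2 and 3, with a library 1 peak of 20.4 at 240 bp. A 3-library region lay at the same distance from it. Only 1 listed astrocyte marker (2.94%, against 8.62% of all genes) had a 2-library region and no 3-library region. It was Clu, which encodes the secreted chaperone clusterin. It had 2, the stronger at chr14:65970766-65970944 inside the gene with 7.43 and 8.00 in libraries 1 and 2, at 24.5-fold and 26.4-fold over the input. The nearest library 3 peak lay 45.5 kb away. Gfap, the filament gene of astrocytes, had 0 2-library regions, and S100b had 0 regions of any kind. Sox2 had 3, the strongest 12.0 kb outside the gene at chr3:34637931-34638149 with 6.06 and 7.69 in libraries 1 and 2.

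Neuron markers had a 2-library region at 13 of 32 members (40.6%) and a 3-library region at 9 (28.1%), against 15.8% and 22.5% of all protein-coding genes. For 7 of them the 2-library region stood without a 3-library region, 21.9% of the list against 8.62% of all genes: Bcl11b, Cux1, Gad1, Nefl, Reln, Thy1 and Tubb3. The median span of the listed neuron genes was 50.7 kb, and the part of gene length was not tested. Bcl11b, a factor of deep-layer neurons, held 7.39 and 7.40 in libraries 2 and 3, 26.4 kb outside the gene. Nefl, a neurofilament subunit, held 6.61 and 6.77 in libraries 1 and 2, 32.2 kb outside it. Grin2b, an NMDA receptor subunit, had both kinds, its strongest 2-library region with 6.77 and 8.12 in libraries 2 and 3. At Tubb3, the neuronal tubulin, the region lay 0.111 kb from a gene end with 5.78 and 4.92 in libraries 1 and 2.

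Oligodendrocyte lineage markers had 2-library regions at 9 of 26 members (34.6%), as many as had 3-library regions. Of all protein-coding genes, 15.8% and 22.5% had these. For 6 of the markers, Cnp, Ermn, Mal, Mog, Sox10 and Ugt8a, there was a 2-library but no 3-library region, 23.1% of the list against 8.62% of all genes. Olig1, a bHLH factor of the lineage, held 7.69 and 7.40 in libraries 2 and 3, and Cnp, a myelin enzyme, 7.08 and 6.21 in the same libraries. A region at one end of Tcf7l2 held 6.88 and 6.46 in libraries 1 and 2. Sox10, the lineage's SOX factor, had a weak region 28.9 kb outside the gene with 4.40 and 4.00 in libraries 1 and 2.

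Other cell types were near or below the share of all genes. Microglia markers had 4 of 22 members (18.2%), led by Ly86 (8.53 and 7.88 in libraries 1 and 3), Sall1 (6.88 and 6.46 in libraries 1 and 2) and Ptprc (7.08 and 4.06 in libraries 2 and 3). None of the 24 endothelial and mural genes (0) carried a 2-library region, and 5 carried a 3-library region. Hepatocyte genes, a list from another tissue, had 4 of 29 (13.8%), with Apoa2 (8.31 and 7.40 in libraries 2 and 3), Ttr (5.78 and 4.31 in libraries 1 and 2) and Apoc3 (5.23 and 4.06 in libraries 1 and 3) strongest. The reactive gliosis list had 7 of 40 (17.5%), led by the endothelin receptor gene Ednrb (10.2 and 6.77 in libraries 1 and 2), the proteoglycan gene Bcan (5.78 and 8.62 in libraries 1 and 2) and Ggta1 (6.77 and 5.73 in libraries 2 and 3).

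The signalling and SOX lists lay between 31.3% and 36.8%, against 15.8% of all protein-coding genes. For 3-library regions they lay between 48.8% and 61.3%, against 22.5% of all genes. The median span of the listed genes was 61.2 kb for FGF and EGF, 53.6 kb for BMP and TGF-beta and 36.9 kb for Wnt. It was 22.9 kb for Notch and 4.79 kb for the SOX family, and the part of gene length was not tested. Receptors and ligands, signal carriers and targets were all among the members with regions. In the Wnt list, 15 of 41 members (36.6%) had a 2-library region, and the coreceptor gene Lrp5 had 3 of them and no 3-library region, the strongest with 10.8 and 7.16 in libraries 2 and 3. Also strong were the receptor gene Fzd10 (7.69 and 7.40 in libraries 2 and 3) and Axin2, a feedback inhibitor and target (6.06 and 7.40 in libraries 1 and 3). In the FGF and EGF list, 11 of 31 (35.5%) had one, led by Fgfr3, Dusp6 and the receptor gene Fgfr2 (6.33 and 8.31 in libraries 1 and 2). In the BMP and TGF-beta list, 11 of 32 (34.4%) had one. These included the inhibitor of bHLH factors Id2, with 8.81 and 8.84 in libraries 1 and 3 and 58.0-fold and 58.2-fold enrichment, at the input floor, 0.082 kb from a gene end. The receptor gene Bmpr1b (7.71 and 6.77 in libraries 1 and 2) and the signal carrier gene Smad4 (8.53 and 5.85 in libraries 1 and 2) followed. In the Notch list, 10 of 32 (31.3%) had one. Its strongest were Notch1, Hes6 and the coactivator gene Maml3 (7.16 and 6.77 in libraries 1 and 2). Maml3 and Rbpj, the DNA-binding partner of Notch, had a 2-library but no 3-library region, 6.25% of the list against 8.62% of all genes. In the SOX family, 7 of 19 (36.8%) had one, led by Sox6 (8.93 and 5.73 in libraries 2 and 3), Sox2 and Sox5 (7.16 and 6.46 in libraries 1 and 2).

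**Figure D5:**
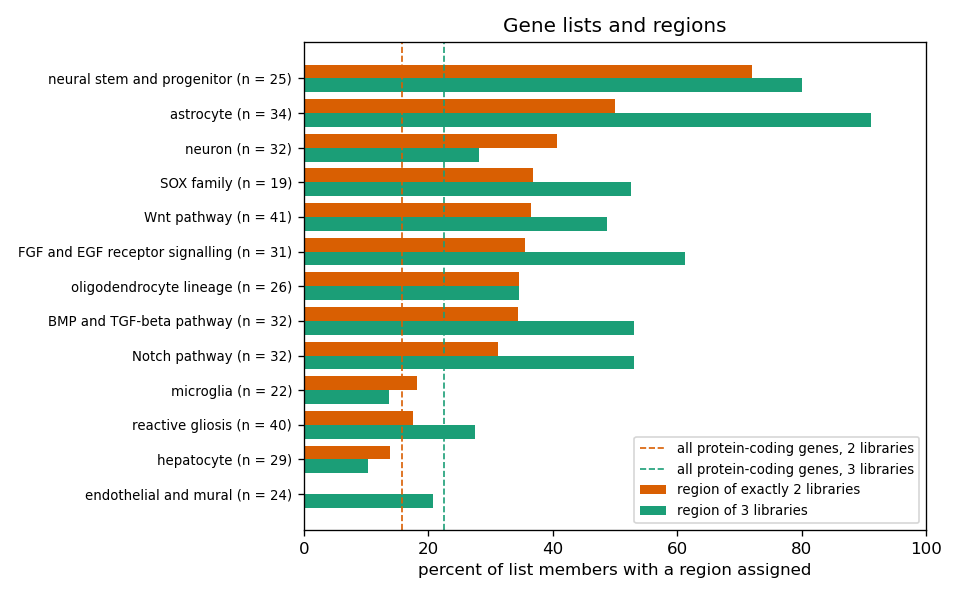
Percent of the members of 13 gene lists with an assigned region of exactly 2 libraries (upper bars) and of 3 libraries (lower bars); dashed lines give the same for all protein-coding genes, 15.8% and 22.5%. Neural stem and progenitor markers reach 72.0% for 2-library and 80.0% for 3-library regions, and endothelial and mural markers 0 and 20.8%.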

How the data were processed

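SOX2 ChIP-seq of mouse cortex was analysed from the authors' peak tables of 3 IP libraries; the input enters through their columns. Per the submitters' processing notes, HOMER 4.7, Bowtie 1.0.0 and the mm10 build were used; other aligner settings are not given in the sources used here. Each library's peaks come from HOMER findPeaks run by the authors in factor mode with the input as control, per the file headers, with limits of 4-fold over the input and over the surrounding 10 kb, 0.0001 for both Poisson p-values, and 0.001 for the FDR. In the deposited tables the normalized tag value is a signal scaled to 10000000 tags, the focus ratio is a fraction, the peak score is the number of tags after a cap per bp, and the fold is a ratio to the input with a floor of 0.5 tags. The authors gave total tags per peak as counts in library 2, and brought them to the input's depth in libraries 1 and 3; the authors' p-values of single peaks were not used further.

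Peaks were merged as described, and where a library had several peaks in a region the strongest was used. A region's strength is the mean over its libraries, and regions were ranked by the mean percent rank within libraries. Genes and promoters came from RefSeq tables of GRCm38.p6, whose coordinates are those of mm10; 21631 protein-coding genes on chromosomes other than Y were used, and 0 members lay on Y. Promoters of chromosome 18 were not analysed here. Merging and assignment were tested on simulated data. No hypothesis test was run, since peak strength chose the members and only 3 libraries exist. Named genes were the 20 genes with the highest-ranked 2-library region, the 5 strongest regions per pair of libraries, the 3 strongest members per list, and Sox2, Gfap, Vim, Nes, Clu and S100b; list members with a 2-library region and no 3-library region were added after their values were seen. Of the genes this rule names, 1 is not reported here. The members and lists were chosen with earlier results of these data known. Depth limits precision, and the interval covers counting error only. Tools were Python 3.11.15 with pandas 2.3.3, numpy 2.4.6, matplotlib 3.10.9 and scipy 1.17.1.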

Additional observations from a re-analysis of the deposited data

How the results depend on the processing

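IP and input libraries could not be paired, because only the IP group has more than 1 sample and no peak table of the input alone was used here. The region classes were compared within the same 3 IP libraries, so their values are paired by library. No paired test was run. The count of 5496 regions was 5550 under a minimum overlap of 0.5 of each peak's length, 5421 when peaks up to 100 bp apart were joined, 5223 with 304 bp (a setting chosen after seeing the data) and 3941 after peaks under 8-fold over the input were dropped. Keeping the upper 0.5 of peaks by score in each library left 2545 regions at 1768 genes, with a median of 7.26 normalized tags and a focus ratio of 0.743. With peaks of at least 8-fold the medians were 5.86 normalized tags, a focus ratio of 0.731 and 1.25 input tags, and 20.2% of regions lay within 1 kb of a gene end. That share was 20.8% with overlap of 0.5 of both lengths, 26.0% within 2 kb and 27.1% when all genes of the table were used; the wider window and gene set raise it by construction, and the cause of the others was not tested. Leaving out 1 library and taking the regions common to the remaining pair, which by construction adds the 3-library regions, gave 10693 to 11695 regions, medians of 6.96 to 7.28 normalized tags, 0.738 to 0.742 for the focus ratio and 2 input tags, 19.7% to 20.4% at gene ends, 5397 to 5718 genes and 31 to 32 astrocyte markers. Of 64 values under alternatives, 35 stayed within 1.5 times the count or 1 SD over libraries, and 29 did not. In 84.2% of these regions the score was within 1.5 times its minimum in at least 1 library. A peak missing from 1 library therefore does not show that SOX2 was absent there. The part of depth was not tested, and the deepest library had the fewest peaks.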

Other observations

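By chromosome, leaving out Y with 0 members among 3 regions, 2-library regions made up 18.2% of all regions on chromosome 1, the lowest share, and 22.4% on chromosome 8, the highest of the autosomes, with 22.3% on chromosome X. The nearest 3-library region lay at a median of 44.6 kb from 2-library regions, 41.4 kb from other 3-library regions and 50.3 kb from 1-library regions. Within 1 kb, 5.09% of 2-library regions had one, against 3.88% of 3-library regions and 5.62% of 1-library regions.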
